A study of Mus musculus with 18 samples.

Results

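The genes described are 9 genes of myelin and of the oligodendrocytes that make it: Mbp, Mog, Mag, Mobp, Cnp, Cldn11, Ermn, Opalin and Mal. They were chosen by name, as textbook markers of mature oligodendrocytes, with earlier results of these data known. All 9 are among the 21923 genes of the count table, and all 9 had enough counts to be among the 13296 genes tested. The libraries come from the cortex of male C57BL/6 mice kept in the home cage, and were made to ask how the RNA of astrocytes differs once the glucose transporter GLUT1 (Slc2a1) is deleted from them. GLUT1 cKO mice carried GLUT1 fl/fl;GLAST-CreERT2/+ and control mice carried GLUT1 +/+;GLAST-CreERT2/+, so both genotypes held the Cre, which is driven by the GLAST promoter and active only after tamoxifen. Mice of both genotypes received an AAV of the PHP.eB serotype (hGFAP-DIO-EGFPL10a), which makes an EGFP-tagged ribosomal protein from the hGFAP promoter in cells where Cre has acted. Both also received tamoxifen for 5 days when 8 to 10 weeks old. RNA was taken after a further 60 days by translating ribosome affinity purification (TRAP), which pulls down the tagged ribosomes with their mRNA (the immunoprecipitate, IP). The values below are those of 3 control and 4 cKO IP libraries.

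Oligodendrocytes wrap axons of the central nervous system in sheets of their own membrane, which become compact myelin where the cytoplasm is squeezed out between the layers. Mbp holds the inner faces of the membrane together, Mog lies on the outermost surface, Mag faces the axon, and Cnp stays in the channels that are not compacted. The genes of these proteins are switched on together as precursors mature, under transcription factors such as Olig2, Sox10 and Myrf, and astrocytes are not the cells that make myelin. An IP that targets astrocyte ribosomes can hold their transcripts from tagged cells or as untagged RNA carried along, and a bulk library does not separate these.

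Mobp and Opalin followed the pattern shared by most of the genes below, and Cnp and Mag did not. The promoters of these 4 genes are shown, and were picked after the levels had been seen. Each is taken from the window of 250 bases before the outermost start that the RefSeq promoter table gives in GRCm38.p6, 5′ to 3′ on the strand of the gene. For Cnp the last 30 of these bases lie inside the annotated gene, and the printed run of 220 bases stops before them. Capitals mark matches on either strand to a core of the SOX family (ACAAAG or TCAAAG) or to a core of Myrf (CTGGNAC), and the 2 cores share no overlapping match here. The windows are chr9:120149492-120149741 (plus strand) for Mobp, chr19:41077114-41077363 (minus strand) for Opalin, chr11:100574689-100574908 (plus strand) for Cnp and chr7:30914923-30915172 (minus strand) for Mag.
Mobp: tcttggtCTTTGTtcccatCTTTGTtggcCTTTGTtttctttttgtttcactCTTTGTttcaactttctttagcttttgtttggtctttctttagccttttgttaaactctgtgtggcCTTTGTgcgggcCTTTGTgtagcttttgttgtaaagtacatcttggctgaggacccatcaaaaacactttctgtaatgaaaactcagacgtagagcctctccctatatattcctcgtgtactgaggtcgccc
Opalin: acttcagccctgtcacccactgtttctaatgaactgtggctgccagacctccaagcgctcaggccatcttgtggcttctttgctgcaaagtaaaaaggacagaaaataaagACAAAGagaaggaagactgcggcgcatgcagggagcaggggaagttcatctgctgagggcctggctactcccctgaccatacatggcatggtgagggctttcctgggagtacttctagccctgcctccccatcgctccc
Cnp: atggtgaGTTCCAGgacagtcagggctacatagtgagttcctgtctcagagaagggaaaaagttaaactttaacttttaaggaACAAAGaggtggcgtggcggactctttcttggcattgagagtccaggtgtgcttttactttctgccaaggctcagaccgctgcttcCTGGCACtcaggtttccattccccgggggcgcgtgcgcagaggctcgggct
Mag: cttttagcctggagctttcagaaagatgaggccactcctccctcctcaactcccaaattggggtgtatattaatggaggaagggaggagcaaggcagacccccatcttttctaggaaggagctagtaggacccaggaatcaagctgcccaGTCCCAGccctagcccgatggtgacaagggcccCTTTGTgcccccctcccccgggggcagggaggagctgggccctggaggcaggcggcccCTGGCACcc

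A window was found for 8 of the 9 genes, and none was matched for Mbp. The SOX core was found in 5 of the 8 windows, beside 27.6% of all 32851 windows of the same length. Mobp held 6 matches, and Mag, Cnp, Opalin and Mal held 1 each. At least 6 matches were found in 1 window of the whole table (0.00304%), which is that of Mobp, and at least 4 in 31 windows (0.0944%). In the Mobp sequence the 6 matches all read as CTTTGT on the printed strand. The Myrf core was found in 3 of the 8 windows, with 2 matches in Mag, 2 in Cnp and 1 in Mog, beside 16.1% of all windows. Cnp and Mag held both cores, Mog the Myrf core alone, and Mobp, Opalin and Mal the SOX core alone. Neither core was found in the windows of Cldn11 and Ermn. A link between the matches and the levels was not tested. These matches are letters in a window and say nothing of binding.

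The total estimated count per library lay between 12570309 and 40734343. Levels are given as CPM, that is, counts divided by the TMM-scaled library total. CPM are not corrected for transcript length, so levels were compared between libraries and not between genes. The whole-gene level of Slc2a1 was 59.5 ± 2.02 CPM (SD, n = 3) in the control libraries and 59.0 ± 2.30 CPM (SD, n = 4) in the cKO libraries, so this count does not separate the genotypes. The study checked the deletion by reads over part of the gene and by qPCR, which are not used here. All 12 astrocyte markers on the list used, from Gja1 and Aqp4 to Slc1a2, had counts, with a summed level of 30505 to 58440 CPM. The 12 neuron markers summed to 3129 to 4727 CPM. No 2 libraries of one genotype agreed within counting noise (lowest chi-square per degree of freedom 32.2), and p-values measure the spread between libraries, which the study counts as mice although the labels do not tie each library to an animal.

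Mbp and Mobp encode small basic proteins of compact myelin. Mbp stood at 197, 169.8 and 267 CPM in control libraries 11, 15 and 19, and at 107, 305, 86.7 and 271 CPM in cKO libraries 1, 5, 9 and 17. The cKO libraries thus held both the highest and the lowest levels of Mbp, 3.51-fold apart, with the control libraries between them. For Mobp the control libraries read 21.5, 18.1 and 21.9 CPM, and the cKO libraries 8.45, 18.2, 11.1 and 13.7 CPM. Here library 5 was the only one of the cKO libraries within the control range, just above its lower end, and the libraries lay up to 2.59-fold apart.

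Mog and Mag encode immunoglobulin-like proteins of the myelin surface, Mog on the outside of the sheath and Mag next to the axon. Control levels of Mog were 10.04, 8.58 and 12.2 CPM, and cKO levels 4.20, 11.2, 4.97 and 11.6 CPM. As for Mbp, cKO libraries 1 and 9 were below every control library, whereas cKO libraries 5 and 17 were inside the control range. Mag was ordered otherwise, with 26.0, 18.9 and 23.6 CPM in the control libraries and 24.4, 16.6, 14.9 and 12.9 CPM in the cKO libraries. Its second highest level was in cKO library 1, where Mog had its lowest, and its lowest level was in cKO library 17, where Mog was near its highest.

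Cnp encodes a phosphodiesterase of cyclic nucleotides that is abundant in uncompacted myelin. Its levels were 366, 370.1 and 281 CPM in the control libraries and 351, 275, 257 and 172 CPM in the cKO libraries. Like Mag, it was lowest in cKO library 17 and among the 3 highest in cKO library 1, and the groups overlapped. Over the 7 libraries it spanned 2.15-fold and Mag 2.02-fold, the narrowest ranges of the 9 genes.

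Cldn11 encodes the claudin of the tight junctions between myelin layers, Mal a proteolipid that sorts membrane in the oligodendrocyte, Opalin a transmembrane glycoprotein of the sheath, and Ermn a cytoskeletal protein of late, wrapping oligodendrocytes. Mal stood at 31.2, 32.1 and 35.0 CPM in the control libraries, a range of 1.12-fold, and at 12.1, 32.2, 11.4 and 28.4 CPM in the cKO libraries. These split into a low pair, libraries 1 and 9, and a pair close to control, libraries 5 and 17. Ermn was also lowest in libraries 1 and 9 and had a wider range, at 14.0, 11.7 and 15.1 CPM in the control libraries and 7.34, 18.3, 3.68 and 11.5 CPM in the cKO libraries.

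Opalin had the widest range of the 9 genes, 7.87-fold. It stood at 4.17, 4.18 and 7.98 CPM in the control libraries and at 1.30, 7.28, 1.09 and 8.60 CPM in the cKO libraries. The low values of cKO libraries 1 and 9 rest on 21 and 22 counts. The exact Poisson 95% interval, which covers counting error only, ran from 0.685 to 1.65 CPM in library 9 and from 7.10 to 10.3 CPM in library 17, so these cKO libraries differed beyond counting error. Cldn11 read 27.1, 24.6 and 33.9 CPM in the control libraries and 19.0, 26.9, 12.4 and 14.4 CPM in the cKO libraries, with library 5 again alone inside the control range.

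**Figure D1:**
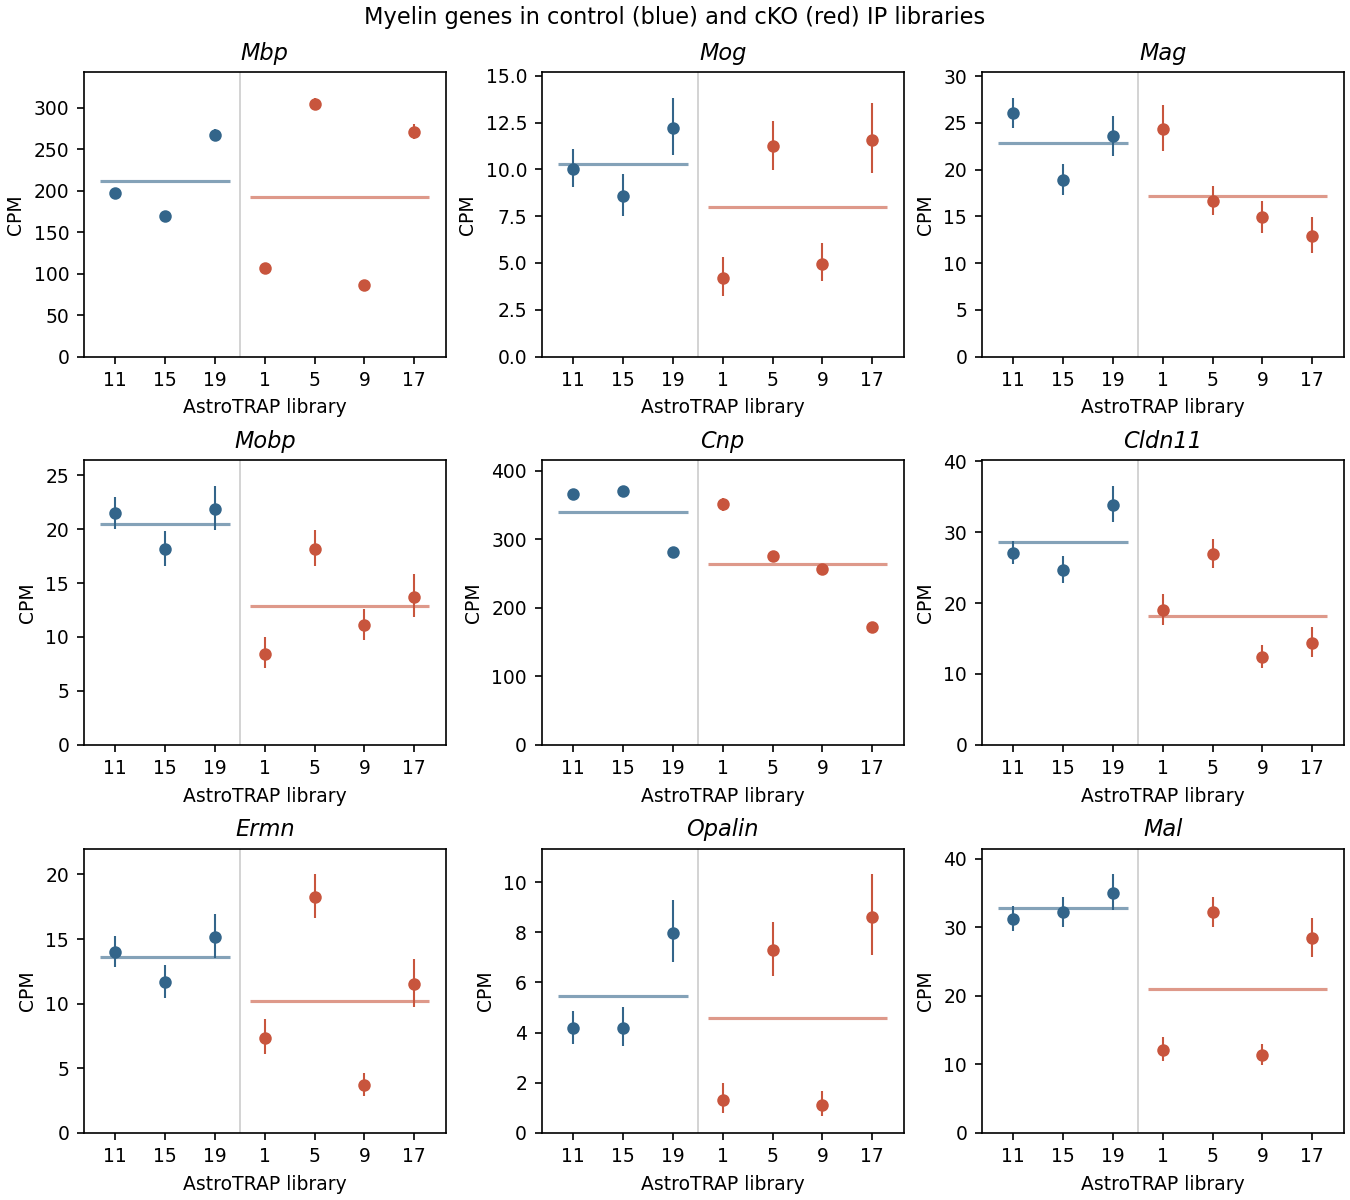
Level of each of the 9 genes (vertical axis, CPM from 0) in each IP library (horizontal axis, AstroTRAP library number), control libraries in blue and cKO libraries in red. Points are libraries, vertical lines their exact Poisson 95% intervals and horizontal lines the group means. In Mbp, Mog, Opalin and Mal, cKO libraries 1 and 9 lie low and cKO libraries 5 and 17 lie near or above the control mean, whereas in Cnp and Mag library 1 is high and library 17 the lowest.

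The same 2 cKO libraries were thus low in most of the genes. Libraries 1 and 9 were the 2 lowest of all 7 in 6 of 9 genes: Mbp, Mog, Mobp, Ermn, Opalin and Mal. Control library 19 and cKO libraries 5 and 17, of different genotypes, were the 3 highest in Mbp, Mog and Opalin. The shares of all genes with these libraries lowest or highest were not counted. The highest level was in control library 19 for 4 of the 9 genes and in cKO library 5 for 2, and the lowest was in cKO library 9 for 5. Each gene's log2 level was set against the mean of the other 8 over the 7 libraries, as a description, since the points share libraries, depth and scaling. Pearson's r was 0.96 for Mal, 0.95 for Ermn, 0.89 for Mog, 0.88 for Mbp, 0.87 for Mobp, 0.84 for Opalin and 0.78 for Cldn11, but 0.17 for Mag and -0.032 for Cnp.

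Libraries of similar depth lay at both ends of the range. Control library 19 and cKO libraries 1 and 9 had similar totals, 19294382, 18592696 and 19993246, and Mbp stood at 267, 107 and 86.7 CPM in them. The library of lowest depth, cKO library 17 with 12570309 counts, had the highest Opalin and the lowest Cnp and Mag. The part of depth in the spread was not tested.

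**Figure D2:**
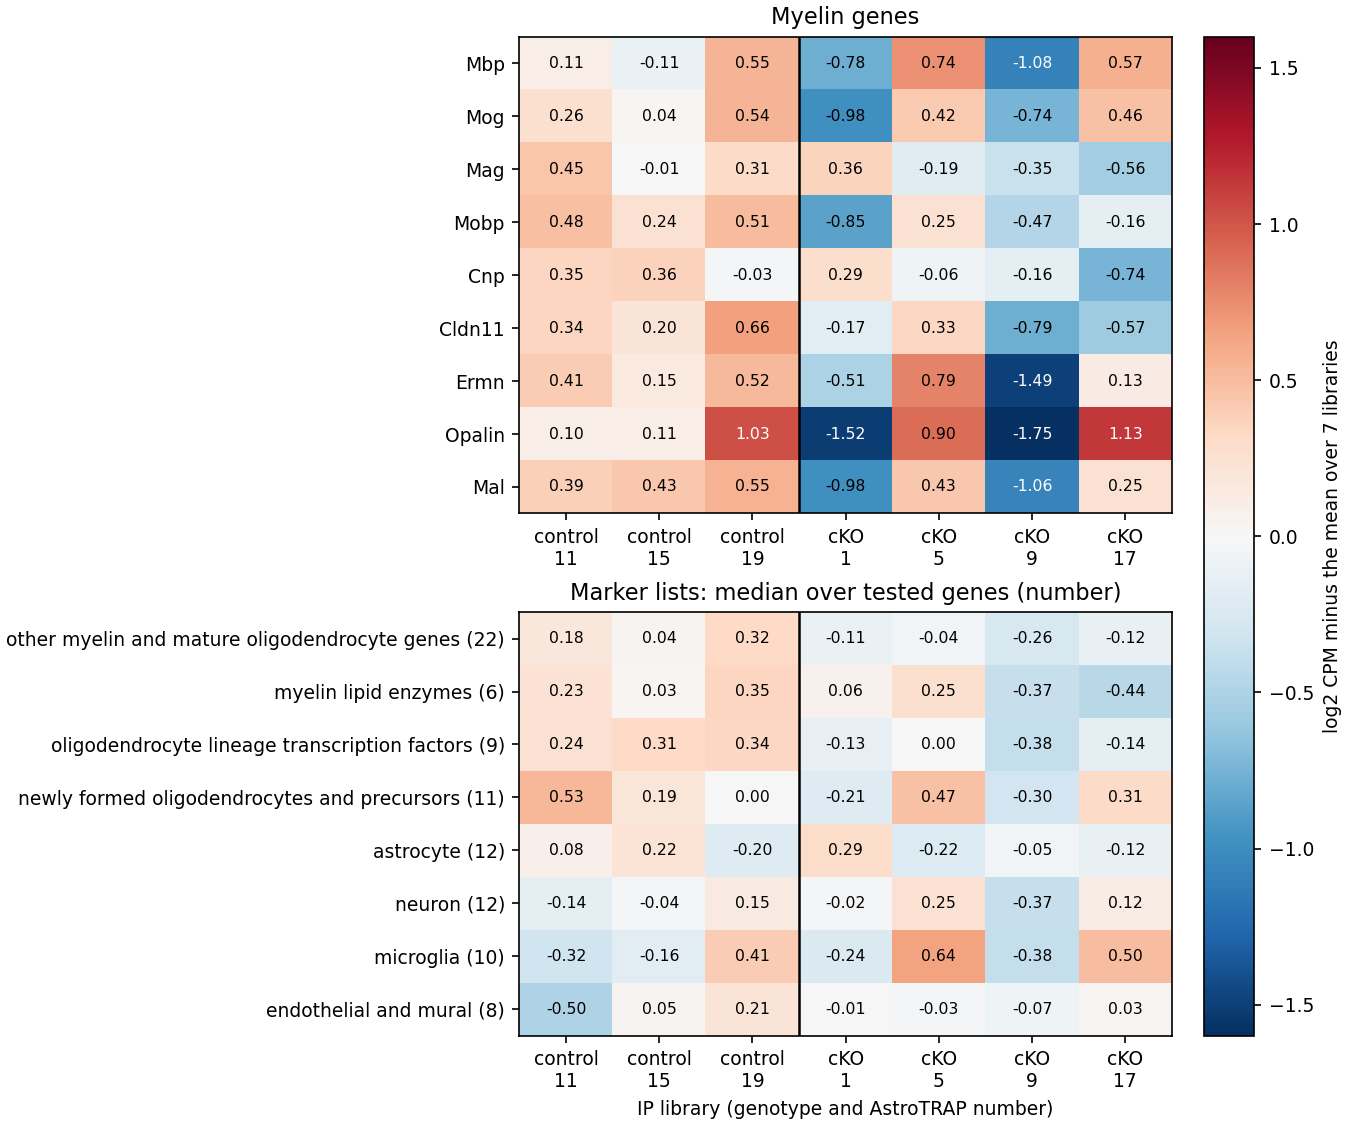
Log2 CPM of each of the 9 genes minus its mean over the 7 IP libraries (upper panel), and the median of the same quantity over the tested genes of each marker list, with their number in brackets (lower panel). Columns are libraries, control left of the black line and cKO right of it. Red is above and blue below the mean, and cKO libraries 1 and 9 are blue for 7 and 9 of the myelin genes, down to -1.75 for Opalin in library 9. Mag and Cnp are above their mean in library 1.

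Within a library, the genes kept different proportions to Mbp. Although the CPM of Mbp spanned 3.51-fold over the 7 libraries, the ratio to Mbp ranged 1.56-fold for Mog, 1.67-fold for Ermn and 1.81-fold for Mal. It ranged 2.52-fold for Mobp, 2.61-fold for Opalin and 3.36-fold for Cldn11.

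Cnp and Mag were the least tied to Mbp. Cnp over Mbp was 1.86, 2.18 and 1.05 in the control libraries and 3.29, 0.903, 2.97 and 0.635 in the cKO libraries, a range of 5.18-fold. Mag over Mbp ranged 4.80-fold, from 0.0476 in cKO library 17 to 0.228 in cKO library 1. The ratio of Mag to Cnp ranged only 1.64-fold, so that these 2 genes stayed closer to each other than either did to Mbp. The pairs were picked after the values had been seen, and the ratios are a description without a test.

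**Figure D3:**
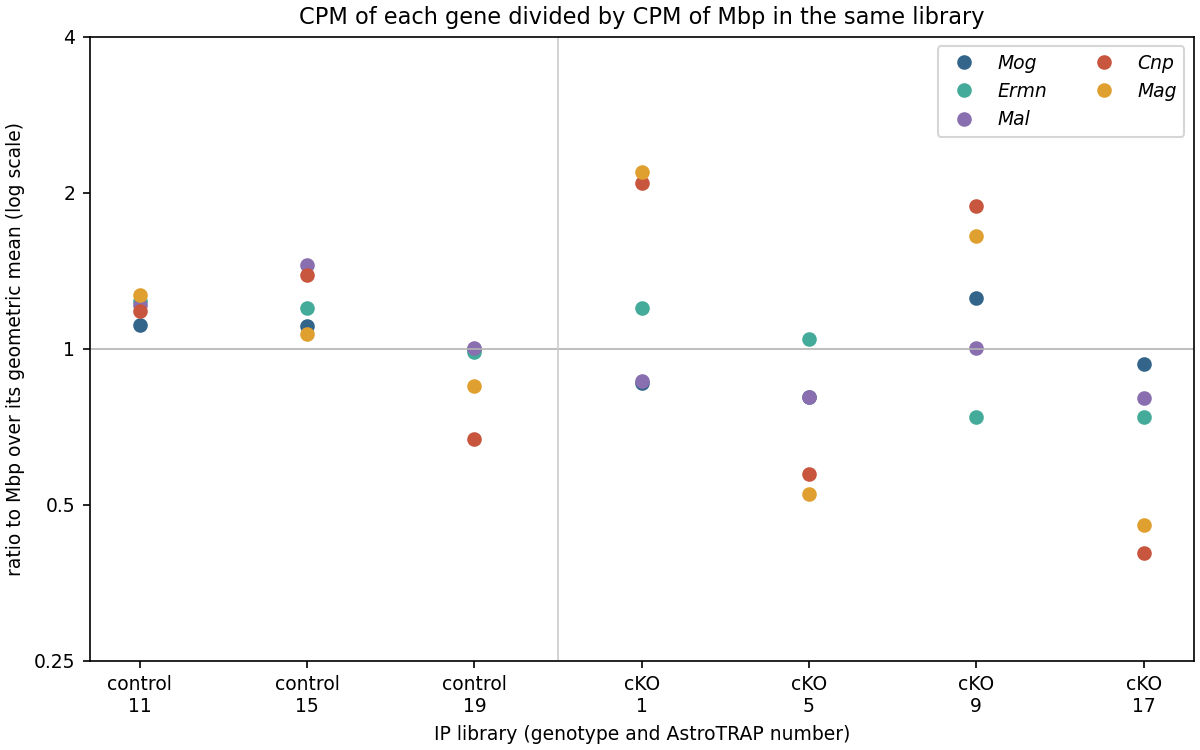
CPM of 5 genes divided by the CPM of Mbp in the same library, relative to the geometric mean of that ratio over the 7 libraries (vertical axis, log scale), by library (horizontal axis, genotype and AstroTRAP number). Each point is 1 library. Mog, Ermn and Mal stay nearer to 1, with ranges of 1.56- to 1.81-fold, whereas Cnp and Mag stand together above 1 in cKO libraries 1 and 9, where they are highest, and below 1 in control library 19 and cKO libraries 5 and 17.

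The summed level of the 9 genes was 698, 658 and 698 CPM in the control libraries, or 685 ± 23.0 CPM (SD, n = 3), and 534, 711, 403 and 544 CPM in the cKO libraries, or 548 ± 126 CPM (SD, n = 4). Cnp made up 31.6% to 65.7% of that sum and Mbp 20.0% to 49.8%, so the sum mixes 2 patterns. Without Cnp and Mag the sum was 305, 269 and 393 CPM in the control libraries and 159, 419, 131 and 359 CPM in the cKO libraries. Libraries 1 and 9 were then below, and library 5 above, every control library. The sum of all 9 genes spanned 0.82 on the log2 scale from its highest to its lowest library, and 0.41 once cKO library 9 was left out, whereas that without Cnp and Mag spanned 1.67.

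In the comparison of the genotypes, none of the 9 genes passed the test. In edgeR's quasi-likelihood fit, adjusted over the 13296 genes, 0 of 9 were called at an adjusted p of 0.05, with 0.0451% of all genes called in either direction and 0.00752% called as lower in cKO. The adjusted p of each of the 9 was 0.9996. The fitted level was below control in cKO for 9 of 9 genes, beside 47.7% of all genes, and the median log2 fold change of the 9 was -0.41, beside 0.012 over all genes tested. As the 9 genes share the libraries in which they are low, these are not 9 separate observations.

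At an unadjusted p under 0.05 the same test gave 2 of 9 genes, both below control in cKO, beside 1.14% of all genes. These were Mobp, with 20.5 ± 2.05 CPM (SD, n = 3) in control and 12.9 ± 4.15 CPM (SD, n = 4) in cKO, and Cldn11, with 28.6 ± 4.79 and 18.2 ± 6.46 CPM. The log2 fold change of Mobp was -0.67 (standard error 0.26, unadjusted p = 0.0268 with edgeR) and that of Cldn11 -0.65 (standard error 0.26, unadjusted p = 0.0323 with edgeR). Both missed the threshold after adjustment over all genes. Mal, at -0.64, had a larger standard error of 0.34, since its mean of 32.8 ± 2.00 CPM in control stood against 21.0 ± 10.8 CPM in cKO.

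For the other 6 genes the log2 fold change lay between -0.41 and -0.14, with standard errors of 0.21 for Cnp to 0.70 for Opalin. Mbp had 211 ± 50.2 CPM in control and 192 ± 111 CPM in cKO, and its fold change on the log2 scale was -0.14 (standard error 0.39). Its sign turned when cKO library 1, cKO library 9 or control library 19 was left out (0.063, 0.099 and 0.064), and that of Opalin turned in the same 3 fits (0.055, 0.068 and 0.12). Leaving out a library also moved Ermn to -0.14 (without cKO library 9) and -0.87 (without cKO library 5). Mog moved to -0.15, -0.20 and -0.22 without cKO library 1, cKO library 9 and control library 19, and to -0.58 and -0.59 without cKO libraries 5 and 17. Cnp moved to -0.20 and Mag to -0.29 without cKO library 17. Without cKO library 1, Cnp moved to -0.53 and Mag to -0.62. The levels of the genotypes overlapped for every gene, that is, 0 of 9 had groups that did not overlap, beside 5.11% of all genes. In bulk IP libraries, fewer cells of a type, less RNA per cell and less untagged RNA carried along cannot be told apart.

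**Figure D4:**
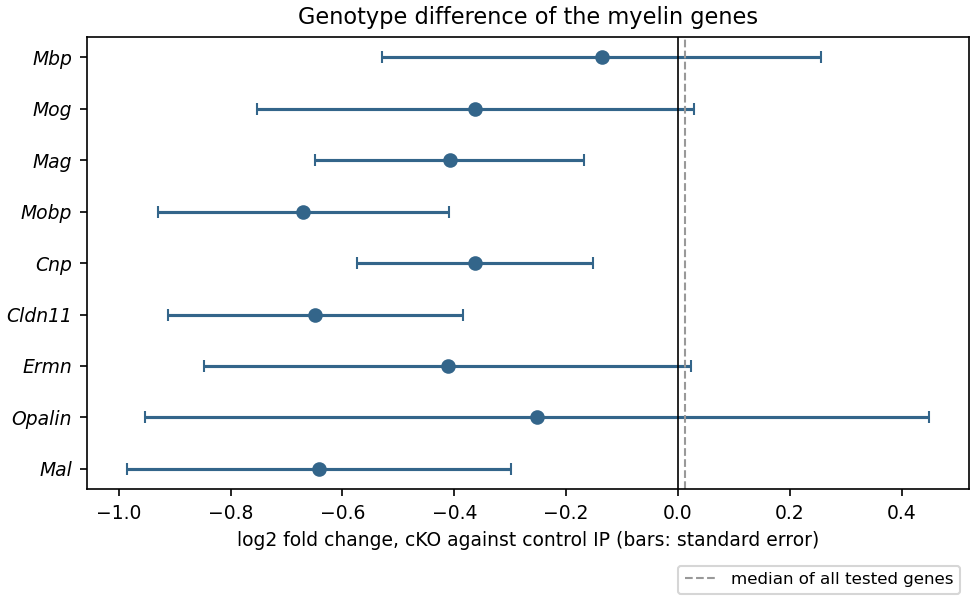
Log2 fold change of each gene, cKO against control IP (horizontal axis), with its standard error from edgeR's quasi-likelihood fit of 3 control and 4 cKO libraries. The solid line marks no difference and the dashed line the median of all tested genes, 0.012. All 9 points lie left of both lines, from -0.67 for Mobp to -0.14 for Mbp, and the bars of Mbp, Mog, Ermn and Opalin cross 0.

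For the 9 genes, the observed spread between libraries was larger in the cKO group. The SD of log2 CPM was larger in cKO than in control for 9 of 9 genes, beside 73.3% of the genes with counts in every library. As a ratio the contrast was widest for Mal, with an SD of 0.087 in control and 0.79 in cKO, and as a difference it was widest for Opalin, with 0.54 and 1.58. For Mag, the closest pair, the SDs were 0.24 and 0.39. As the 9 genes share the libraries, these are not 9 separate observations. The SDs, of 3 control and 4 cKO libraries, were not tested against each other.

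Set against all genes, the highest library exceeded the lowest at least 4-fold in 2 of the 9 genes, Ermn (4.97-fold) and Opalin (7.87-fold), beside 20.0% of all tested genes, so the share of the 9 was near that of all genes. Ranges of this size are more frequent at low levels. Among genes with a mean of at least 10 CPM, 1 of the 7 myelin genes, Ermn, reached 4-fold, beside 1.75% of all. All 7 of them reached 2-fold, beside 23.1% of all, but the 2-fold cut was set after the values had been seen. It lies just under the range of Mag, 2.02-fold, and the genes share libraries, so this share is a description only.

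**Figure D5:**
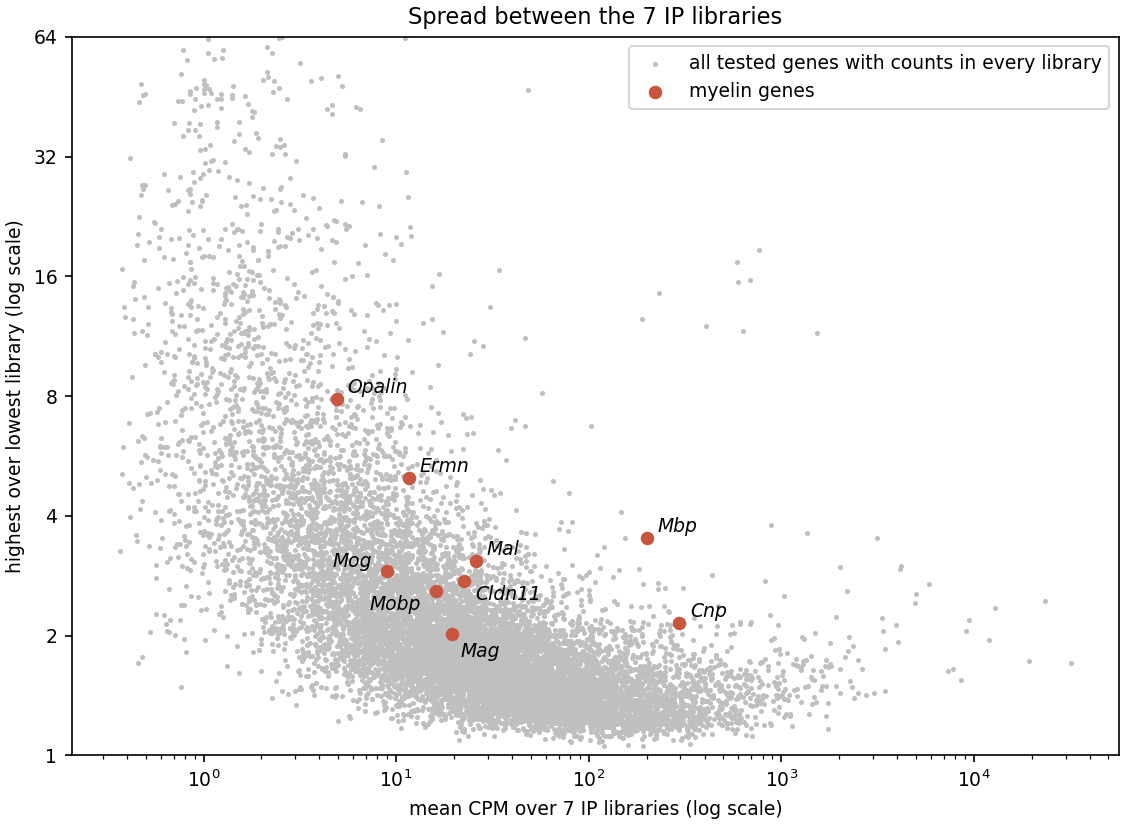
Highest over lowest IP library (vertical axis, log scale) against mean CPM over the 7 IP libraries (horizontal axis, log scale), for tested genes with counts in every library (grey) and the 9 myelin genes (red). The 1049 tested genes at 0 in a library have no finite ratio and are not drawn, and 31 genes lie above the axis. Mbp, at 3.51-fold, stands above most genes of its level, whereas Mog and Opalin lie among genes of low level that vary as much.

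Other genes of the oligodendrocyte lineage were read from lists chosen by function. Of 24 other myelin and mature oligodendrocyte genes, 22 were tested, 0 were called in either direction, and 18 had a fitted level below control in cKO, with a median log2 fold change of -0.21 and a range of -1.08 (Tmem63a) to 0.48 (Tmem88b). The 4 of highest level, Car2, Plekhb1, Il33 and Qdpr, lay between -0.16 and 0.063 and did not follow the pattern shared by most of the 9 genes. Car2 was highest in cKO library 1 (1928 CPM). Il33 stood at 291 and 260 CPM in cKO libraries 1 and 9 and was lowest in cKO library 17 (170 CPM). Qdpr ranged only 1.23-fold. Car2, a carbonic anhydrase, and Il33, an alarmin, are made by astrocytes too. Of the 6 enzymes of myelin lipids, 0 were called and 5 were below control, with a median of -0.11. Ugt8a, which makes galactosylceramide, stood at 5.06, 5.89 and 5.87 CPM in the control libraries and 3.39, 5.81, 2.24 and 0.815 CPM in the cKO libraries, low in libraries 1 and 9 and lowest in library 17.

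Of 10 transcription factors of the lineage, 9 were tested, 0 were called and 9 were below control in the fit, with a median of -0.28. Olig1 and Olig2, which specify the lineage and are also present in some astrocytes, had unadjusted p-values of 0.0125 and 0.0367 with edgeR, at log2 fold changes of -0.44 (standard error 0.15) and -0.33 (standard error 0.14). Olig1 stood at 348, 344 and 253 CPM in control and at 253, 245, 232 and 202 CPM in cKO, a narrower spread than that of the myelin genes. Of 12 genes of newly formed oligodendrocytes and precursors, 11 were tested, 0 were called and 5 were below control, with a median of 0.23. Of the 4 at the highest level, Bcas1, Tnr and Lhfpl3 were lower in cKO libraries 1 and 9 than in 5 and 17, with Bcas1 at 3.70 and 3.13 against 12.7 and 11.9 CPM, and Itpr2 was not. The tested genes at a lower level, Gpr17, Cspg4, Mycl, Pdgfra, Vcan, Neu4 and Enpp6, did not show this split. Gpr17, for example, stood at 4.50 and 1.24 CPM in libraries 1 and 9 and 1.59 and 3.56 CPM in libraries 5 and 17.

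Summed markers of microglia and neurons were high in the libraries in which Mbp was high. The 10 microglia genes measured, none of them at 0 in all libraries, summed to 80.6, 89.5 and 123 CPM in the control libraries and 80.8, 143, 71.4 and 128 CPM in the cKO libraries, with the 3 highest sums in control library 19 and cKO libraries 5 and 17. The 12 neuron genes summed to 3644, 3895 and 4662 CPM in control and 3858, 4711, 3129 and 4727 CPM in cKO, highest in the same 3 libraries. The neuron sum was led by Snap25 and Camk2a, and single genes of both lists differed from the sums. Tubb3, Nefm and Gad1 had their highest level in other libraries, whereas the rest of the neuron genes were each highest in library 5, 17 or 19. Among the microglia genes, Tmem119 and Csf1r were lowest in cKO library 17. The 12 astrocyte genes ran the other way, with 45299, 46535 and 30707 CPM in control and 58440, 31695, 39239 and 30505 CPM in cKO, a sum led by Aldoc. The 12 endothelial and mural genes, of which 8 were tested, summed to 50.3, 59.7 and 65.1 CPM in control. In cKO the same 12 genes summed to 59.5, 84.5, 60.9 and 74.8 CPM. None of these 4 lists held a gene called between the genotypes by edgeR, and their part in the spread of the myelin genes was not tested.

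Across all genes with a mean of at least 10 CPM, the log2 levels most like the mean of the 9 myelin genes over the 7 libraries were those of Ppib, Cpt1c, Cnpy3, Usp33, Trf, Ccdc47, Tmem158, Morf4l2, Wbp4 and H2-D1, with Pearson's r of 0.97 down to 0.93, and 27 of 8596 genes had r of at least 0.9. Of the 11 other myelin and mature oligodendrocyte genes at this level, 1 was among these 27: Trf, the transferrin that oligodendrocytes secrete. Trf stood at 56.6, 62.1 and 58.5 CPM in control and 40.7, 63.0, 35.3 and 52.2 CPM in cKO, again lowest in libraries 1 and 9, and ranged 1.78-fold. Ppib, a cyclophilin of the endoplasmic reticulum, had the highest r but ranged only 1.18-fold, so likeness in order is not likeness in size. The least alike were Lypd6, at r = -0.98, then Taok1, Taf1, Sbf2 and Nwd1. The median r was 0.56 over the microglia list, 0.52 over the neuron list, 0.12 over the other myelin genes and -0.30 over the astrocyte list, beside -0.075 over all 8596 genes. With 7 points that share depth and scaling, these correlations are a description.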

How the data were processed

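RNA of TRAP immunoprecipitates from mouse cortex was sequenced as single-end Smart-seq2 libraries. The authors trimmed reads with cutadapt 1.15, assigned them with kallisto 0.44.0 (versions from the submitters' processing notes) to GENCODE vM17 transcripts (GRCm38), and deposited estimated counts, summed by gene symbol and without any correction for depth or length. Of the columns, 7 could be tied to a genotype through the sample names in the study's source data. The other 11 columns were not used, so the input libraries, a comparison of IP with input and 2 of the 5 control IP samples in the labels are not analysed here. The study left out a sample with very few reads, and IP samples in which neuronal genes were high.

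Counts were rounded to whole numbers, filtered with filterByExpr (13296 of 21923 genes kept) and scaled by TMM. The quasi-likelihood test of edgeR 4.0.16 (R 4.3.3) compared the genotypes, without covariates, and p-values were adjusted over all tested genes (Benjamini-Hochberg, threshold 0.05). Standard errors were taken from the F statistic. CPM were computed from the TMM-scaled totals without a prior count. Log2 CPM for correlations were computed by edgeR with a prior count of 2. The script was tested on simulated counts. Total counts of 12570309 to 40734343 set the precision: 3 counts in the smallest library correspond to 0.239 CPM.

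As alternatives, scaling by RLE, by the upper quartile or by library size, no filter, at least 1 CPM in 3 libraries, edgeR's exact test (the study's choice), DESeq2 1.42.0, scaling to 5 astrocyte genes, the mean of log2 values in place of the sum, and leaving out each library were run. A surrogate variable (sva 3.50.0), the sum without Cnp and Mag, the ratios between genes and the 2-fold range were added after the data had been seen. The 9 genes and all lists were chosen with earlier results of these data known. Genes named beside them are the 4 of highest mean CPM in each list, the ends of a list's range, and the 10 most and 5 least like the 9 genes among those of at least 10 CPM. Other list genes were named after their values had been seen. A gene of the lists is not reported here and was left out of the lists, the ratios and the likeness. Promoters and positions are from RefSeq tables for GRCm38.p6, in which the genes span chr18:82475091-82585637 (Mbp), chr17:37010740-37023398 (Mog), chr7:30899175-30914922 (Mag), chr9:120149742-120181488 (Mobp), chr11:100574909-100591875 (Cnp), chr3:31149920-31164326 (Cldn11), chr2:58045115-58052864 (Ermn), chr19:41061959-41077113 (Opalin) and chr2:127633226-127656695 (Mal).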

Additional observations from a re-analysis of the deposited data

Results flagged for a closer look

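The 66 values examined were those of the 9 myelin genes, Slc2a1, the marker genes of highest level, the genes most and least like the 9, and the list sums. As the sums hold genes that also stand alone, these are not separate tests. In 1 of them a library stood apart within the 4 cKO libraries, where 66 separate values would give about 3.30 by chance. This was Rgs5, a pericyte gene, at 39.1 CPM in cKO library 5 beside a mean of 14.5 CPM in the other 3 cKO libraries. Control libraries, being 3, were not examined in this way. None of the 9 myelin genes was singled out.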

How the results depend on the processing

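None of the 9 myelin genes was called under any alternative run, with 0 of 9 called throughout. The number of all genes called was 6 with edgeR's quasi-likelihood test, 18 with edgeR's exact test and 21 with DESeq2, and 4 to 6 when 1 library was left out. The log2 range of the summed CPM was 0.82, and it was 1.41 for the mean of log2 CPM and 1.67 for the sum without Cnp and Mag, which take away weight from Cnp by construction. Leaving out 1 library gave 0.41 (without cKO library 9) to 0.82. The difference between the genotypes in the mean log2 sum was -0.35 and kept its direction in all alternatives, at -0.28 when scaled to 5 astrocyte genes, -0.21 without cKO library 9 and -0.59 for the mean of log2 CPM, beside a pooled SD of 0.26. Of the single genes, only Mbp and Opalin turned their sign, with log2 fold changes of -0.45 to 0.099 and -0.73 to 0.12 when 1 library was left out, and each did so in the fits without cKO library 1, cKO library 9 or control library 19. The cause was not tested. The surrogate variable was led by cKO library 17 (0.925, the others -0.17 to -0.13), and with it all 9 fitted levels were still below control. No paired analysis was possible because the columns carry no replicate number. Precision is limited by the number of libraries, 3 control and 4 cKO, and for Opalin by its 21 and 22 counts in cKO libraries 1 and 9.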
